A study of Mus musculus with 2 samples.

Results

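The Mir23a and Mir23b clusters are paralogous groups of microRNA (miRNA) genes, each carrying a miR-23, a miR-27 and a miR-24 gene in the same order. The 6 genes described here were taken by symbol from the miRNA rows of the files: Mir23a, Mir27a and Mir24-2 on chromosome 8, and Mir23b, Mir27b and Mir3074-1 on chromosome 13. All 6 had a row, out of 1973 gene rows, and all 6 passed the detection minimum of 10 counts per library, as did 370 rows in all. Mir24-1, the third gene of the chromosome 13 cluster, had no row of its own. Mir3074-1 lies across the same bases on the other strand.

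The libraries came from the forebrain of B6NCrl mouse embryos, male and female together, at day 15.5 of gestation, and held RNA below 30 nt. Replicate 1 pooled 78 embryos and replicate 2 pooled 62, so each value is an average over many animals and over all cell types of the forebrain. The design held a single group, with no treatment or mutant. Nothing in the sources used here says whether the pools shared litters or a library batch, so differences between them may be partly technical.

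MiRNAs are cut from hairpin precursors, and bases 2 to 8 of the mature strand, the seed, pair with target messenger RNAs and lower their output. The genes of a cluster are made as a common primary transcript and can then differ in how much mature RNA accumulates. MiR-23, miR-27 and miR-24 are studied above all in endothelial cells, where they act in vessel growth, in T cells, and, for miR-27, in fat cell formation. In brain they are found in neural and in vascular cells.

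The strands that separate the paralogs, and those that do not, are shown because they set which reads could be assigned to a locus. They are RefSeq entries on GRCm38.p6, written 5′ to 3′ with the seed in capitals. All 6 genes, together with Mir24-1 and Mir3074-2, matched a RefSeq hairpin, and miR-23b-3p is named only.
miR-23a-3p: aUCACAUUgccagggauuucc
miR-27a-3p: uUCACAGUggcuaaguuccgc
miR-27b-3p: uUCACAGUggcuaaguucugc
miR-24-3p, the same from Mir24-1 and Mir24-2: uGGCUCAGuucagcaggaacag
miR-24-1-5p: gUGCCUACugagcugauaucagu
miR-24-2-5p: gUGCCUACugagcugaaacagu
miR-3074-5p, the same from Mir3074-1 and Mir3074-2: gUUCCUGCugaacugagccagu

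MiR-27a-3p and miR-27b-3p have the same seed and differ by C19U, with positions counted from the 5′ end and the miR-27a-3p base given first. MiR-23a-3p fits into the Mir23b hairpin with 1 mismatch over its 21 bases. In both cases the first 18 bases also occur in the paralog's hairpin, so a read of these 18 bases or fewer from the 5′ end cannot tell the loci apart. MiR-24-3p occurs whole in both Mir24 hairpins. Its reverse complement shares a run of 20 of its 22 bases with miR-3074-5p, which likewise occurs whole in both Mir3074 hairpins. The strands at the other end of each hairpin were distinct, and miR-23a-5p, miR-27a-5p, miR-27b-5p, miR-23b-5p, miR-24-1-5p and miR-24-2-5p had no other listed hairpin that matched with 1 mismatch or fewer. Over whole precursors the identity was 73.8% for Mir23a and Mir23b (75 and 74 bases), 61.1% for Mir27a and Mir27b (87 and 73 bases) and 54.5% for Mir24-2 and Mir24-1 (107 and 68 bases).

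The chromosome 8 genes lie within 404 bases of the plus strand of mm10, with no other kind of gene around them in the annotation. Mir23a is at chr8:84208518-84208592, Mir27a at chr8:84208672-84208758 and Mir24-2 at chr8:84208815-84208921. The chromosome 13 genes lie within 800 bases inside the protein-coding gene 2010111I01Rik, which runs on the plus strand. Mir23b (chr13:63300484-63300557) is in an intron of that host, and Mir27b (chr13:63300712-63300784) overlaps an exon of it. Mir3074-1 (chr13:63301199-63301283) is on the minus strand, opposite an exon of the host. All 3 also fall in an intron of Fancc, a DNA repair gene that runs on the minus strand, so that Mir3074-1 shares its strand with Fancc.

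Replicate 1 held 4464927 counts on the strand of a miRNA gene and replicate 2 held 4753555. Reads placed at more than 1 locus stayed out of the gene rows, and made up 44.6% of the reads of replicate 1 and 42.4% of those of replicate 2. Levels are given as CPM, the count scaled to 1000000 over the gene rows of a library. At these depths a count of 0 allowed, at 3 counts, up to 0.672 CPM in replicate 1 and up to 0.631 CPM in replicate 2, for counting error only. The forebrain label was set against neuronal and progenitor markers. Of the neuronal rows, Mir137 averaged 9092 ± 926 CPM, Mir139 3862 ± 15.0 and Mir153 2112 ± 427 (SD, n = 2 each), while the 3 Mir124a rows averaged 1.05 to 2.80 CPM. Of the progenitor rows, Mir92b averaged 5547 ± 814 CPM, Mir9-3 733 ± 21.2 and Mir9-2 3.26 ± 0.451. The mature strand of the Mir124a rows has several genomic copies, so low counts there do not show absence. How far reads at more than 1 locus lowered the Mir124a and Mir9 rows was not tested.

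The clusters were led by their miR-23 genes, which were nearly equal to each other. Mir23a held 24836 counts in replicate 1 and 26006 in replicate 2, or 5562 and 5471 CPM. Mir23b held 26378 and 29347 counts, or 5908 and 6174 CPM. Together these genes took 93.7% of the members' counts in replicate 1 and 92.2% in replicate 2. They ranked 34 and 31 among all gene rows by mean CPM.

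The miR-27 genes were much lower and unequal. Mir27a held 300 counts in replicate 1 and 467 in replicate 2, or 67.2 and 98.2 CPM. Mir27b held 1982 and 2836 counts, or 444 and 597 CPM. Both genes were lower in replicate 1 than in replicate 2, and the values of Mir27a stayed below those of Mir27b in each library.

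The rows at the miR-24 positions were low in both clusters. Mir24-2 held 369 counts in replicate 1 and 559 in replicate 2, or 82.6 and 117.6 CPM. The Mir3074-1 row held 813 and 836 counts on its own strand, or 182 and 176 CPM. These levels leave out any read that fell on more than 1 locus, and miR-24-3p occurs whole in both clusters. A read of exactly that strand fits both loci and so entered neither row, and the Mir24-2 level is no measure of miR-24-3p. How far reads on more than 1 locus lowered the miR-23, miR-27 or miR-24 levels was not tested.

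**Figure D1:**
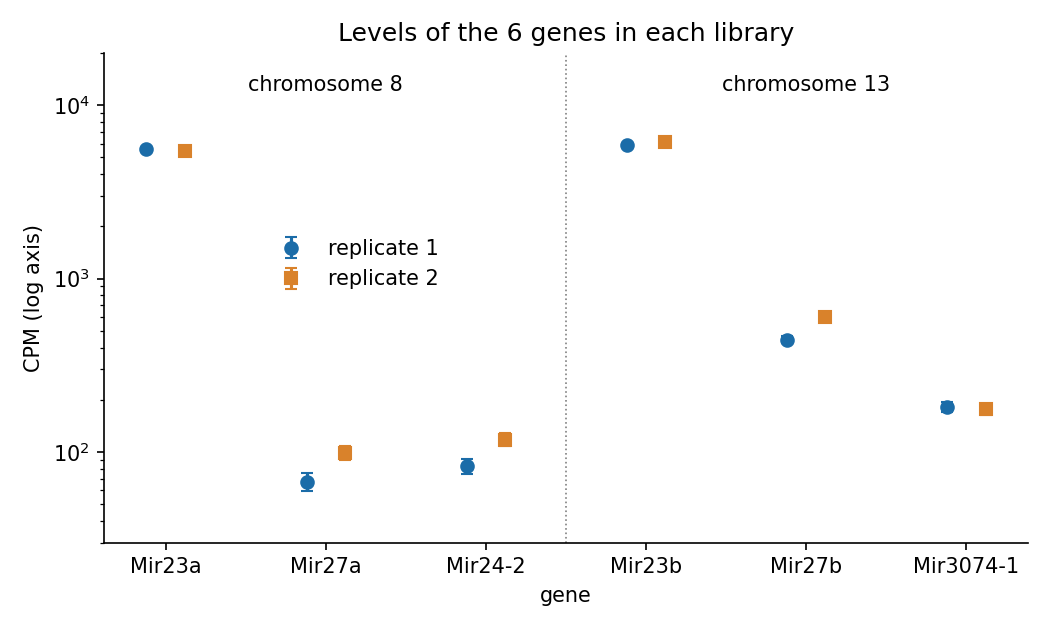
CPM of the 6 genes (log axis), with a point for each library and bars for the 95% Clopper-Pearson interval of the count. Mir23a and Mir23b stand between 5471 and 6174 CPM, and the other 4 genes lie between 67.2 and 597 CPM, with Mir27b the highest of them.

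Counts per gene were compared between genes per 100 bases of annotated precursor, and the precursors run from 73 to 107 bases. The scale is a choice, because the libraries held RNA below 30 nt and counts need not grow with precursor length. On that scale Mir23b averaged 8163 ± 254 CPM per 100 bases, Mir23a 7356 ± 86.4, Mir27b 713 ± 148, Mir3074-1 211 ± 5.17, Mir27a 95.1 ± 25.2 and Mir24-2 93.6 ± 23.1 (SD, n = 2 each). Neighbours in this order were taken as separated when their means differed by more than the larger SD and the order held in both libraries. By this measure every step was separated except the last, between Mir27a and Mir24-2, whose means differed by 1.51 CPM per 100 bases. The widest gap lay between Mir23a and Mir27b, at 10.3-fold, and the step from Mir23b to Mir23a was 1.11-fold. As mean CPM per gene, Mir24-2 (100.1 ± 24.7) stood above Mir27a (82.7 ± 22.0), but that difference too was smaller than the larger SD.

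The 2 miR-23 genes shared their reads almost evenly. Mir23a took 48.5% of the pair's counts in replicate 1 (Clopper-Pearson 95% interval 48.1 to 48.9) and 47.0% in replicate 2 (46.6 to 47.4). The intervals stayed below 50% and did not overlap each other. They cover counting error only, since PCR copies could not be told from separate molecules. The log2 ratio of Mir23a over Mir23b averaged -0.13 ± 0.06 per gene and -0.15 per base of precursor (SD, n = 2).

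The miR-27 pair leaned to chromosome 13. Mir27a took 13.1% of the pair's counts in replicate 1 (95% interval 11.8 to 14.6) and 14.1% in replicate 2 (12.97 to 15.4). These intervals overlapped. The log2 ratio of Mir27a over Mir27b averaged -2.66 ± 0.09 per gene and -2.91 per base of precursor.

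**Figure D2:**
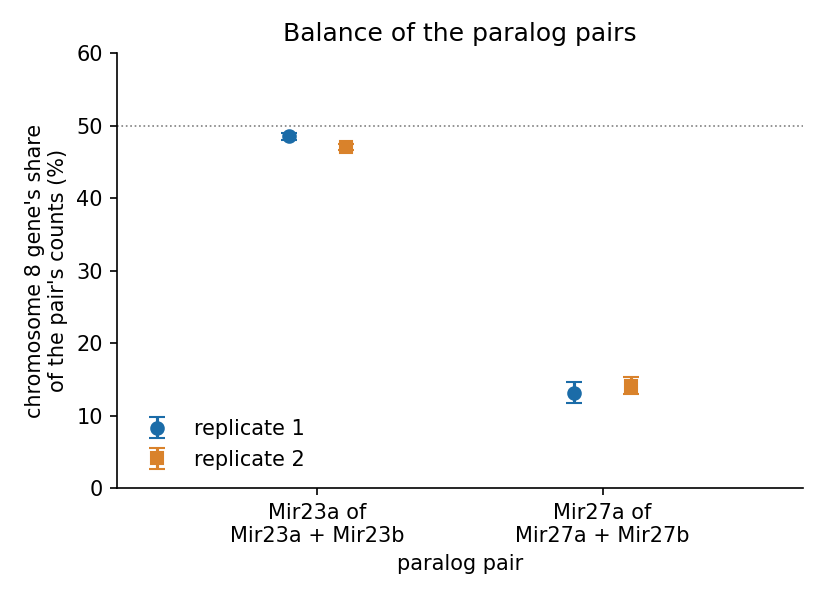
Share of each pair's counts taken by the chromosome 8 gene, in percent, with a point for each library, bars for the 95% Clopper-Pearson interval and a dotted line at 50%. Mir23a lies at 48.5% and 47.0% and Mir27a at 13.1% and 14.1%.

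MiRNA pairs whose mature strands have the same length and differ at 1 base gave a scale for these balances. The Mir27 pair is of this kind. The Mir23 pair could not be placed among them, because no sequence of miR-23b-3p was listed. Among 16 other such pairs with both genes detected, the absolute log2 ratio per base of precursor ran from 0.087 to 8.83, with a median of 3.69. The ratio of the Mir27 pair was exceeded in 10 of the 16, and that of the Mir23 pair undercut in 1. Without the division by length, these numbers were 10 and 0. Per gene, the pairs nearest to the Mir27 pair were Mir19a over Mir19b-1 (log2 ratio 2.63) and Mir100 over Mir99a (-2.95). The pairs nearest to the Mir23 pair were Mir10a over Mir10b (0.78) and Mirlet7a-1 over Mirlet7c-1 (-0.90). In many pairs a mature strand comes from more than 1 gene. Examples are miR-103-3p of Mir103-1 and Mir103-2, miR-19b-3p of Mir19b-1 and Mir19b-2, and let-7c-5p of Mirlet7c-1 and Mirlet7c-2. Most of the 10 pairs that exceeded the Mir27 pair were of this kind. Among them were Mir103-1 over Mir107 (-8.63 per base) and the pairs of Mirlet7b with Mirlet7c-1 and Mirlet7c-2. The nearest pairs Mir19a over Mir19b-1 and Mirlet7a-1 over Mirlet7c-1 were also of this kind. Reads placed at more than 1 locus stayed out of the rows, and how far this widened the scale was not tested. Pairs share the libraries and in part the genes, and no test was made on them.

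Within a cluster the miR-27 gene stood far below its miR-23 neighbour, and the gap was wider on chromosome 8. Mir27a over Mir23a had a log2 ratio of -6.37 in replicate 1 and -5.80 in replicate 2. Mir27b over Mir23b had a log2 ratio of -3.73 and -3.37. The 2 clusters did not overlap in this ratio, and each was lower in replicate 1. Per base of precursor the mean log2 ratio was -6.30 for Mir27a over Mir23a and -3.53 for Mir27b over Mir23b. Mir24-2 over Mir23a had a log2 ratio of -6.07 in replicate 1 and -5.54 in replicate 2, or -6.32 per base on average. Reads of exactly miR-24-3p, which occurs whole in both Mir24 hairpins, entered no row. The ratio thus does not compare miR-24-3p with miR-23a-3p.

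A wide range between neighbours was also seen in other duplicated clusters. Per 100 bases of precursor, the highest gene exceeded the lowest by 78.6-fold in the chromosome 8 members and by 38.8-fold in the chromosome 13 members. The lowest on chromosome 13 was the Mir3074-1 row. In the annotation used for coordinates, that gene lies on the opposite strand from Mir23b. Whether the row's reads came from Mir3074-1 or from Mir24-1 was not tested. Mir23b exceeded Mir27b, on its own strand, by 13.1-fold in replicate 1 and 10.2-fold in replicate 2 per base. The fold was 2886 in the cluster from Mir17 to Mir92-1, 117 in that from Mir106a to Mir363, and 29.3 in that of Mir106b, Mir93 and Mir25, all of them linked to proliferation. The 3 Mir181 clusters spanned 279-fold, 3.42-fold and 1.78-fold, and the pairs of Mir15a with Mir16-1 and Mir15b with Mir16-2 spanned 1.60-fold and 1.83-fold. In the Mir29 clusters the fold was 89.5 for Mir29a over Mir29b-1 and 44.1 for Mir29c over Mir29b-2, where the lower gene was not detected. The lowest genes behind the 2886-fold and 117-fold ranges, Mir19b-1 and Mir19b-2, share miR-19b-3p. How far reads at more than 1 locus widened any of these folds was not tested. Clusters differ in how many genes they hold and how many of these share sequence with another locus, and no test was made between them.

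**Figure D3:**
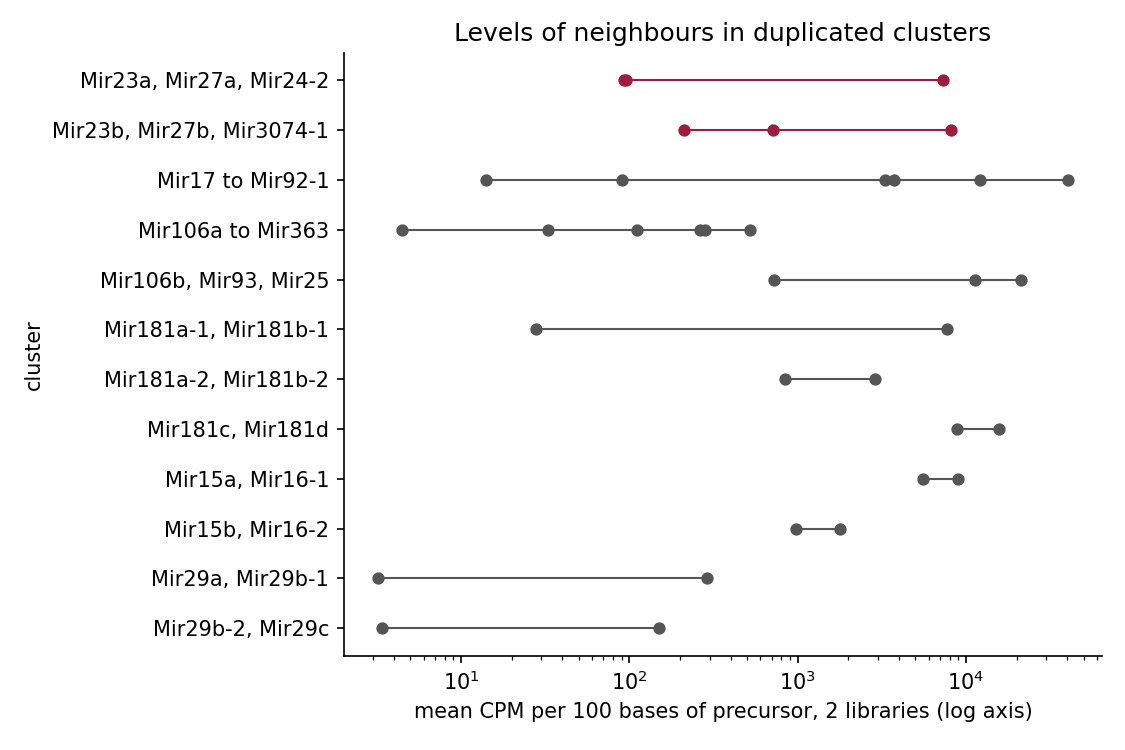
Mean CPM per 100 bases of precursor (log axis) for each gene of a cluster, with a line from the lowest to the highest. The members' clusters (red, at the top) span 78.6-fold and 38.8-fold, between the 1.60-fold of Mir15a with Mir16-1 and the 2886-fold of the Mir17 cluster. The 38.8-fold is that of Mir23b over the Mir3074-1 row, whose reads were not assigned to Mir3074-1 or Mir24-1.

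Reads at the miR-24 position of chromosome 13 fell on both strands. The Mir3074-1 row held 813 counts on its own strand and 36 on the opposite strand in replicate 1, and 836 and 31 in replicate 2. In CPM, the opposite strand stood at 8.06 in replicate 1 and 6.52 in replicate 2. The opposite strand thus took 4.24% (95% interval 2.99 to 5.82) in replicate 1 and 3.58% (2.44 to 5.04) in replicate 2, and the intervals overlapped. Of the 280 rows with 100 or more counts per library, strands combined, 11 had a higher mean opposite-strand share, and the median share was 0%.

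The other 5 rows had almost no counts on the opposite strand. Mir24-2, which Mir3074-2 overlaps, had 3 in each library, or 0.806% in replicate 1 and 0.534% in replicate 2. Mir27b had 0 and 3, Mir23b had 1 and 0, and Mir23a and Mir27a had 0 in both, which at a 95% upper bound allowed 0.0149% for Mir23a and 1.22% for Mir27a in replicate 1. The strand of a row is that of the annotation used for counting, GENCODE M4, which was not analysed here. In the later M21 release Mir3074-1 has a revised record on the minus strand, where the listed mature strand, miR-3074-5p, occurs whole in 2 hairpins, while miR-24-1-5p, on the plus strand, occurs in no other listed hairpin. Which of the overlapping genes gave the reads of either column was not tested.

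**Figure D4:**
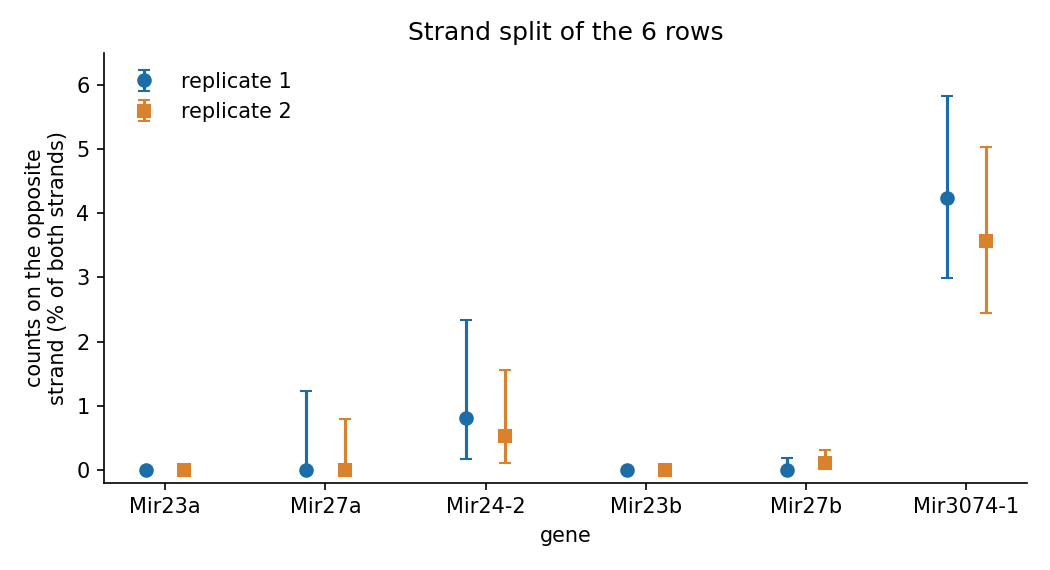
Counts on the opposite strand as a percent of both strands for the 6 rows, with a point for each library and bars for the 95% Clopper-Pearson interval. Mir3074-1 lies at 4.24% and 3.58%, Mir24-2 below 1%, and the other rows at or near 0.

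The libraries differed in 4 of the 6 genes beyond counting error, all 4 lower in replicate 1 (exact binomial test, two-sided, Benjamini-Hochberg adjusted over 457 genes). Among all genes tested, 36.3% were called in either direction and 19.3% were called lower in replicate 1 and higher in replicate 2. That direction depended on scaling: replicate 1 was the higher for 78 called genes and the lower for 88, against 96 and 72 with TMM scaling, 87 and 80 with DESeq2 size factors, and 56 and 125 with Mir99a, the most abundant gene, left out of the total. Of the 6 genes, 1 was called higher and 3 lower in replicate 1 with TMM, 1 and 4 with DESeq2 size factors, and 0 and 5 without Mir99a. Mir27a had a log2 ratio, replicate 1 over replicate 2, of -0.55 (adjusted p = 1.09e-06). Mir24-2 had a ratio of -0.51 (adjusted p = 6.19e-07) and Mir27b one of -0.43 (adjusted p = 2.77e-23). Mir23b was called at a ratio of only -0.06 (adjusted p = 1.06e-06), a difference that lost its call with TMM scaling (adjusted p = 0.137, where the range over the alternatives ran down to 6.78e-23). The test compares 2 libraries, not conditions.

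Mir23a and Mir3074-1 were not called, with log2 ratios of 0.02 (adjusted p = 0.146) and 0.05 (adjusted p = 0.671) by the same exact binomial test. Mir23a was called higher in replicate 1 with TMM and DESeq2 scaling, and lower with a total that omits Mir99a. A median log2 ratio of -0.24 over the 6 genes stood beside -0.05 over the 370 detected genes, while their median absolute ratio was 0.19. The absolute ratio of Mir27a was at percentile 85.7 of detected genes, that of Mir24-2 at 83.2 and that of Mir27b at 80.3, while Mir23b was at 21.1, Mir3074-1 at 16.5 and Mir23a at 7.84.

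Set against the spread between pools in place of counting error, the differences were modest. edgeR's trended dispersion gave a coefficient of variation of 16.3% at the level of Mir27a and 13.3% at that of Mir23b. From it alone, with counting error left out, the log2 ratio of 2 replicates has an SD of 0.33 for Mir27a, 0.33 for Mir24-2 and 0.30 for Mir27b. The observed ratios, taken without the TMM factors that the dispersion used, were 1.65, 1.55 and 1.40 times that SD. The multiple was 0.23 for Mir23b, 0.16 for Mir3074-1 and 0.088 for Mir23a. These genes are among those from which the spread was estimated.

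**Figure D5:**
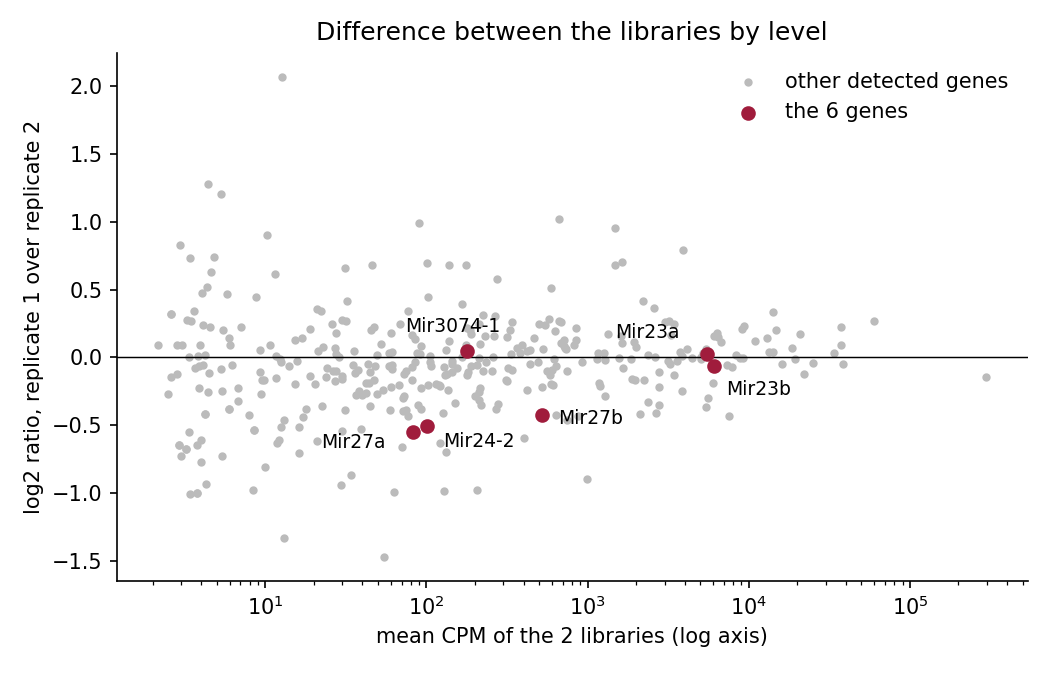
Log2 ratio of replicate 1 over replicate 2 against mean CPM (log axis), with a point for each of the 370 detected genes and the 6 genes in red. Mir27a, Mir24-2 and Mir27b lie between -0.55 and -0.43, and Mir23a, Mir23b and Mir3074-1 lie between -0.06 and 0.05.

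Genes whose levels in both libraries lay nearest to the members were found by distance in log2 CPM over the 2 libraries. Nearest to Mir23a were Mir127 (distance 0.056) and Mir16-1 (0.12), and nearest to Mir23b were Mir135b (0.091) and Mir98 (0.16). Mir27b lay nearest to Mir374b (0.15) and Mir325 (0.28), and Mir3074-1 nearest to Mir135a-1 (0.042) and Mir488 (0.11). Nearest to Mir27a were the liver miRNA Mir122 (0.15) and the myeloid miRNA Mir223 (0.20), and nearest to Mir24-2 were Mir214 (0.16) and Mir92-2 (0.22). With 2 libraries, this likeness is of level and of a single difference, and says nothing of a pattern across tissues.

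No member was separated from the detected genes just above and just below it in mean CPM. Those were Mir92b and Mir127 for Mir23a, Mir98 and Mir135b for Mir23b, Mir374b and Mirlet7c-1 for Mir27b, Mir488 and Mir221 for Mir3074-1, Mir383 and Mir214 for Mir24-2, and Mir668 and Mir224 for Mir27a. Their exact ranks thus rest on differences within the spread of the libraries.

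Markers of vascular and blood cells, in which the clusters are also known to be active, were measured in the same libraries. Endothelial Mir126a had 15856 CPM in replicate 1 and 16377 CPM in replicate 2, and was called lower in replicate 1 (log2 ratio -0.05), while Mir126b had no row. Of the 4 mural and mesenchymal rows, which summed to 3434 CPM in replicate 1 and 3777 in replicate 2, Mir143 and Mir214 were called lower in replicate 1 with log2 ratios of -0.13 and -0.38, Mir145a at -0.24 was not called, and Mir199a-1 had 0 and 2 counts. The 2 erythroid rows summed to 124 CPM in replicate 1 and 149 in replicate 2, with Mir144 called lower in replicate 1 (-0.35) and Mir451a (-0.22) not called.

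Of the 3 immune rows, which summed to 200.2 CPM in replicate 1 and 206 CPM in replicate 2, Mir223 was called lower in replicate 1 (-0.35), Mir155 higher (0.34), and Mir146 (-0.09) was not called. Mir142 had no row. The 6 neuronal rows summed to 15434 CPM in replicate 1 and 14711 in replicate 2. Mir137 was called higher in replicate 1 (0.21), Mir153 lower (-0.42) and Mir139 (0.01) was not called. Among the Mir124a rows, whose mature strand has several genomic copies, Mir124a-3 was called lower in replicate 1 with 0 counts, against 10 in replicate 2, and the other 2 were not called.

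Of the 3 neural progenitor rows, which summed to 5722 CPM in replicate 1 and 6843 in replicate 2, Mir92b was called lower in replicate 1 (-0.30), Mir9-2 and Mir9-3 were not called, and Mir9-1 had no row. The 3 oligodendrocyte rows summed to 421 CPM in replicate 1 and 462 in replicate 2, with Mir219a-1 called lower (-0.23) and Mir219a-2 and Mir338 not called. The part of any of these cell types in the differences of Mir27a, Mir24-2 and Mir27b was not tested, and in pooled tissue fewer cells of a type and less RNA per cell cannot be told apart.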

How the data were processed

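The authors deposited raw read counts for the miRNA genes of each library, not normalized: counts on either strand, on the gene's strand and on the opposite strand. They come from mm10 alignments and GENCODE M4 annotation, per the deposited README. Names of the aligner and the counter were not given in the sources used here. Multi-mapping, unmapped, no-feature and ambiguous reads have rows of their own, which were kept out of totals and tests. Symbols and coordinates came from GENCODE M21 (mm10) by gene identifier: 1894 of 1973 gene rows matched. Records of Mir23b, Mir27b and Mir3074-1 have a later version there, so their M4 bounds may differ. Counts are per gene, not per arm.

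CPM used the strand column. Ratios within a pair had 0.5 counts added to each count. Libraries were compared by a two-sided exact binomial test (SciPy 1.17.1) for genes with at least 10 counts in total, Benjamini-Hochberg adjusted at 0.05. No contrast exists for a quasi-likelihood test. Dispersion came from edgeR 4.0.16 (TMM, intercept only), over the detected genes. Hairpins were aligned globally with Biopython 1.88. Alternatives were TMM and DESeq2 1.42.0 scaling, a total without Mir99a, either-strand counts, other minimums, 5 added counts, a total over all reads, and each replicate left out.

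The members, lists and settings were chosen with earlier results of these data known. Named genes were the members, the 2 genes nearest in level to each, its neighbours in rank, the highest and lowest gene of each cluster list, the 2 nearest pairs and the marker lists. The clusters of Mir195a or Mir195 with Mir497 or Mir497a had 1 row, Mir195a, and gave no range.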

Additional observations from a re-analysis of the deposited data

How the results depend on the processing

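Calls for Mir27a, Mir24-2 and Mir27b held under each other scaling, strand column and minimum tried; adding 5 counts changes the ratio and not the p-value, so it bears on no call. Mir23b lost its call with TMM scaling. Mir23a gained one with TMM (log2 ratio 0.06) and DESeq2 scaling (0.05), and turned to -0.036, also called, with Mir99a left out of the total. Mir3074-1 turned to -0.0095 there and was called under no alternative. The members' share of counts, 1.24% of gene counts, was 0.462% of all reads. Per base of precursor, a scale added after the data were seen, the log2 ratio was -2.91 for Mir27a over Mir27b, -6.32 for Mir24-2 over Mir23a and -0.020 for Mir24-2 over Mir27a, against 0.28 per gene; precursor lengths make this change. Leaving out either replicate moved no level, share or ratio by more than its SD, which with 2 libraries holds by construction. No paired analysis was possible because the design has 1 group. Without a second library the test between libraries could not be made. Depth limited the opposite-strand share of Mir3074-1, which rests on 36 and 31 counts.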
